A study of Mus musculus with 4 samples.

Results

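A set of 10 genes that mark smooth muscle cells and mural cells of blood vessels was examined in ribosome footprints of cultured mouse myoblasts. The members were chosen by name as smooth muscle, myofibroblast and pericyte markers. They comprised 8 contractile and thin filament genes (Acta2, Tagln, Myh11, Cnn1, Myl9, Tpm1, Tpm2 and Cald1) and 2 mural cell genes (Rgs5 and Cspg4). All 10 had a row among the 55573 genes measured.

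Ribo-seq, which sequences the mRNA fragments covered by ribosomes, was performed on primary myoblasts from WT mice and from eIF5A-KO mice, with 2 libraries per group and 4 in all. The KO mice carried Pax7 CreERT2/+; eIF5A f/f, so that the floxed alleles of eIF5A, a translation elongation factor, are removed after tamoxifen only in cells in which Pax7 drives Cre. The WT controls were given by the study in one place as Pax7 CreERT2/+ and in another as Pax7 +/+; eIF5A f/f. Cells came from hind-limb muscle of 3-week-old littermates on a C57BL/6j background, were labelled as proliferating at day 2 of culture, and were treated with cycloheximide before lysis. The number of mice behind each library was not given, so the p-values below measure only the spread between these libraries, which may be technical.

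Smooth muscle cells contract when myosin, built from the heavy chain Myh11 and regulatory light chains such as Myl9, pulls on filaments of the smooth muscle actin Acta2. Tropomyosins (Tpm1, Tpm2), caldesmon (Cald1), calponin (Cnn1) and transgelin (Tagln) bind these filaments, and most of these genes are driven by the serum response factor Srf with its coactivators. Myofibroblasts and cultured muscle progenitors also make Acta2, while Tpm1 and Cald1 have forms in most cells that carry stress fibres, and pericytes are recognised by the G protein regulator Rgs5 and the proteoglycan Cspg4 (NG2).

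The libraries held 642429 to 704006 gene-assigned reads. Protein-coding genes took 41.5% and 33.9% of them in WT and 65.4% and 59.2% in KO-labelled libraries. Levels are the deposited RPKM, which are reads divided by gene length and by a library total. The totals implied by the values differed from the sums of reads, and the median gene was level between the groups on this scale. The targeted gene Eif5a had 34.9 and 65.2 RPKM in WT and 60.3 and 59.4 RPKM in KO-labelled libraries. Its level did not go down with the label (log2 difference 0.32 ± 0.48 SE, adjusted p = 0.839 in limma), and without WT replicate 1 the difference was -0.12. As 43.0% of its 30-base coding windows also occur in another gene or pseudogene, its level is less certain, and the groups are called here by their labels. Counts of 3 reads or fewer were taken as the floor of detection.

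The actins show how closely the members resemble genes outside the set. The first 30 coding bases of Acta2 and of the striated actins Acta1 and Actc1, which have coding sequences of the same length, are given to show how often closely related actins differ within the length of a footprint. Capitals mark bases that differ from Acta2 at the same position, counted from 1 at the start codon (GENCODE vM21, GRCm38, coding strand).
Acta2: atgtgtgaagaggaagacagcacagccctg
Acta1: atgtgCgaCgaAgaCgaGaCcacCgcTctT
Actc1: atgtgtgaCgaCgaGgaGaCcacCgcTTtg

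Within these 30 bases Actc1 differed from Acta2 at 8 positions and Acta1 at 9. Over the whole coding sequence Acta2 shared 85.4% of bases with Acta1, the skeletal form, and 82.6% with Actc1, the cardiac form. A footprint is about as long as one of the lines above, and a fragment that is the same in several genes cannot be assigned to one of them. Of the 30-base windows of Acta2, 30 also occur in the pseudogene Gm6375 and 27 in the cytoplasmic actin Actg1. The longest run that Acta2 shared with Actb was 47 bases, coding bases 910 to 956, which is shown because it is longer than a footprint.
Acta2 and Actb: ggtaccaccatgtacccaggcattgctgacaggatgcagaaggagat

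Of all 30-base windows of its coding sequence, Acta2 shared 2.99% with another gene or pseudogene. For Tagln, Cnn1, Cald1, Rgs5 and Cspg4 this share was 0%, for Tpm1 0.595%, for Tpm2 0.896%, for Myh11 1.21% and for Myl9 1.23%. Of their 17 relatives outside the set, 9 were about as distinct, from 0% in Tagln2 and Tagln3 to 6.08% in Acta1, with Myh9 at 2.20%. The other 8 were less distinct, at 43.7% for Actb, 81.4% for Actg1, 52.1% for Tpm3, 49.7% for Tpm4, 53.1% for Cnn3, 51.4% for Myl6, and 95.5% and 100% for the light chains Myl12a and Myl12b. How reads with several matches were counted was not stated, so the levels of these 8, and the shares given below of families that hold them, are less certain.

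Acta2 was the highest at 71.4 RPKM averaged over the 4 libraries, followed by Tpm1 at 41.1, Cald1 at 25.9, Tpm2 at 14.5, Rgs5 at 11.9, Myl9 at 4.44, Cspg4 at 1.83, Myh11 at 0.697 and Cnn1 at 0.440 RPKM, while Tagln was listed at 0. The ranges of neighbours in this order overlapped for Acta2 with Tpm1, Tpm1 with Cald1, Tpm2 with Rgs5, Rgs5 with Myl9, Myl9 with Cspg4 and Myh11 with Cnn1. They did not overlap for Cald1 with Tpm2, where 23.1 to 30.9 RPKM stood against 13.1 to 15.4 RPKM, or for Cspg4 with Myh11, where 1.25 RPKM was the lowest of the first and 1.14 RPKM the highest of the second. Acta2, Tpm1 and Cald1 together made up 80.6% and 78.6% of the members' summed RPKM in WT and 80.6% and 81.7% in KO-labelled libraries.

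**Figure D1:**
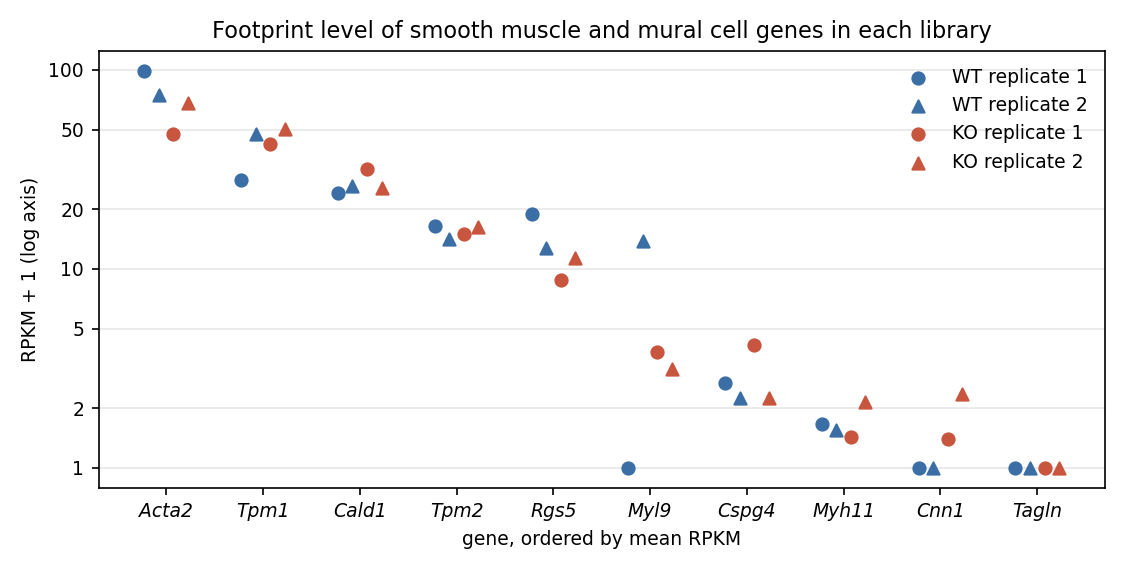
Level of each gene in each library, as RPKM + 1 on a log axis, with WT libraries in blue and KO-labelled libraries in red and the replicate number as the symbol. Acta2 and Rgs5 are the genes tested whose red points both lie under their blue points, and Tagln sits at 1 on this axis, which is an RPKM of 0, in all 4 libraries.

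The order depends on the length used. The deposited RPKM divides by all exonic bases of a gene, whereas ribosomes cover the coding part, which is 978 of 6485 bases in Tpm1 and 543 of 4546 in Rgs5 but 1131 of 2196 in Acta2. With the longest coding sequence as the length, a scale added after the values were seen, Tpm1 stood first at an average of 273 RPKM, ahead of Acta2 at 139, Cald1 at 135, Rgs5 at 99.8, Tpm2 at 49.4 and Myl9 at 10.0. The Tpm1 values on this scale were 178 and 308 in WT and 276 and 328 in KO-labelled libraries, and those of Acta2 were 191, 143, 90.7 and 130. Tpm1 thus exceeded Acta2 in 3 of 4 libraries, and WT replicate 1 was the exception. Rgs5 lay above Tpm2 in all 4 libraries on this scale and in 1 of 4, WT replicate 1, on the deposited one. A comparison of a gene between libraries is the same on both scales.

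Acta2, the actin of smooth muscle and myofibroblasts (ENSMUSG00000035783, chromosome 19, 34241090 to 34255590, minus strand), had 98.2 and 73.5 RPKM in WT and 46.7 and 67.1 RPKM in KO-labelled libraries, from 130, 76, 93 and 119 reads. Both KO-labelled values lay under both WT values, but the nearest pair, 67.1 and 73.5 RPKM, had counting intervals that overlapped widely (55.6 to 80.3 against 57.9 to 91.9, exact Poisson, 95%). The group means were 85.8 ± 17.5 and 56.9 ± 14.4 RPKM (SD, n = 2). The log2 difference was -0.59 ± 0.46 (SE, 95% interval -1.73 to 0.54), and it did not pass the test (adjusted p = 0.716 in limma). With totals of reads in place of the deposited scaling the difference was 0.01, where the median of all genes moved to 0.47, so that Acta2 lay 0.46 under the median gene, and the groups overlapped.

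Among the actins Acta2 was a minor form. It made up 13.5% and 6.95% of the summed RPKM of the 6 actins in WT and 4.20% and 5.76% in KO-labelled libraries, and these groups did not overlap (exact permutation p = 0.333, the smallest that 2 against 2 libraries allow). Actb, the main cytoplasmic actin, took 51.1% and 73.7% in WT and 78.8% and 80.7% in KO-labelled libraries. WT replicate 1 stood apart here, since Acta1 and Actc1, which differentiating muscle makes, took 17.7% and 8.77% in it against at most 3.92% and 0.620% elsewhere. Within the 4 muscle actins, Acta2 was the largest form in WT replicate 2 and both KO-labelled libraries at 59.8%, 58.1% and 69.4%, and it was second to Acta1 in WT replicate 1 at 33.5% (exact permutation p = 0.667 between groups).

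Tpm1, a tropomyosin that stabilises actin filaments in muscle and in stress fibres (ENSMUSG00000032366, chromosome 9, 67022590 to 67049406, minus strand), had 26.9 and 46.5 RPKM in WT and 41.7 and 49.4 RPKM in KO-labelled libraries. WT replicate 1 was the low library and the groups overlapped. The log2 difference was 0.35 ± 0.46 (SE, 95% interval -0.79 to 1.49, adjusted p = 0.813 in limma), and without WT replicate 1 it was -0.03. Tpm2, the beta-tropomyosin of skeletal and smooth muscle (ENSMUSG00000028464, chromosome 4, 43514711 to 43523765, minus strand), was the most even member, with 15.4 and 13.1 RPKM in WT and 14.0 and 15.3 RPKM in KO-labelled libraries. Its groups overlapped, and its log2 difference was 0.04 ± 0.38 (SE, 95% interval -0.88 to 0.96, adjusted p = 0.978 in limma).

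Tpm1 and Tpm2 open with the same 35 coding bases, which are shown because a footprint on the start of either gene could come from the other.
Tpm1 and Tpm2: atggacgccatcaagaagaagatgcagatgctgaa
Of the 4 tropomyosins, Tpm1 made up 26.8% and 36.1% of the summed RPKM in WT and 32.3% and 41.5% in KO-labelled libraries, and Tpm2 made up 15.3%, 10.2%, 10.9% and 12.9%. Tpm4, a cytoskeletal form, was larger than Tpm1 in 3 libraries at 41.0%, 39.8% and 43.6%, and smaller in KO-labelled replicate 2 at 35.3%. The exact permutation p was 0.667 for the Tpm1 share and 1 for the Tpm2 share between groups.

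Cald1, which binds actin and myosin and is shared by smooth muscle and other contractile cells (ENSMUSG00000029761, chromosome 6, 34598500 to 34775473, plus strand), had 23.1 and 25.0 RPKM in WT and 30.9 and 24.4 RPKM in KO-labelled libraries. It rested on 142 to 337 reads per library. The groups overlapped because KO-labelled replicate 2 lay between the WT libraries. The log2 difference was 0.18 ± 0.40 (SE, 95% interval -0.80 to 1.16, adjusted p = 0.893 in limma).

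**Figure D2:**
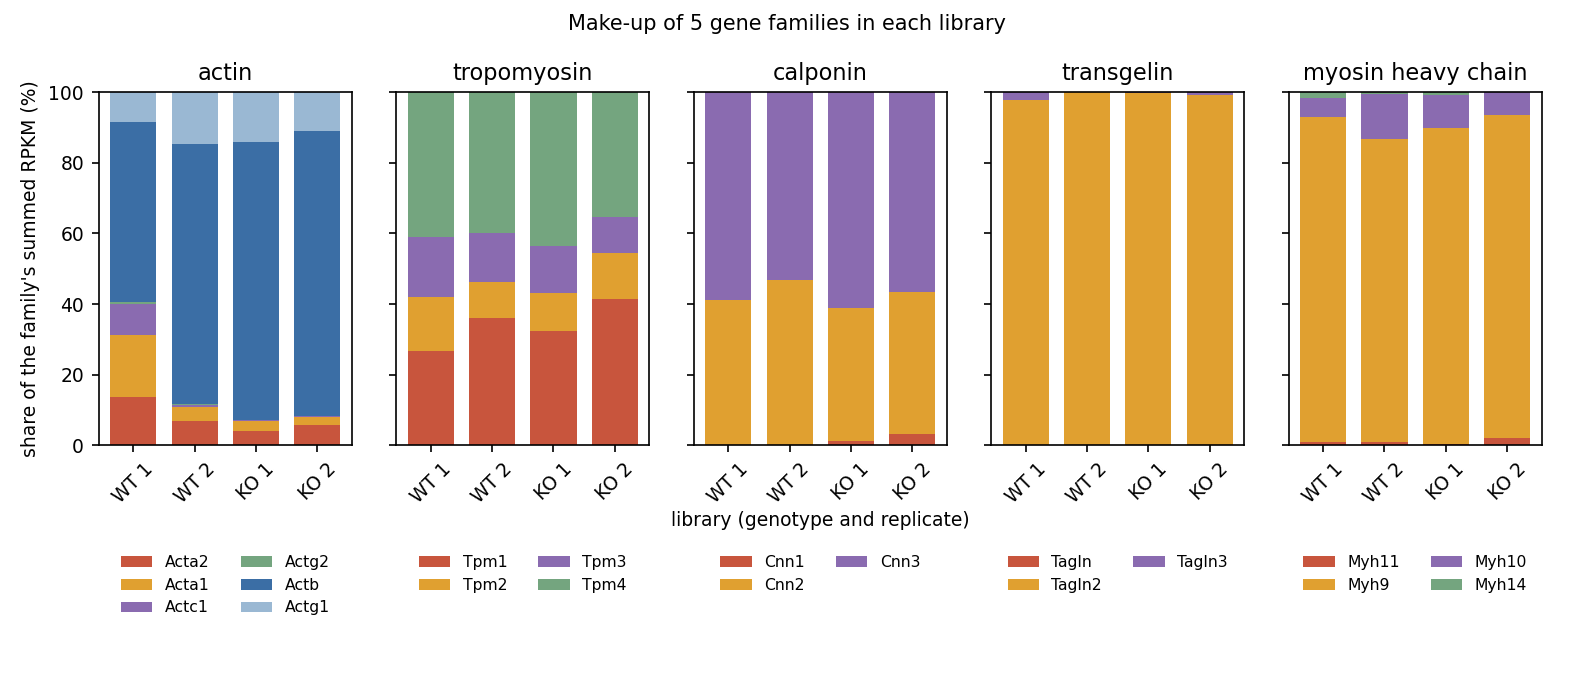
Share of each gene in the summed RPKM of its family, in percent, for each library, with the member Acta2, Tpm1, Cnn1, Tagln or Myh11 at the bottom of the bar in red. Tpm1 holds 26.8% to 41.5% of its family and Acta2 4.20% to 13.5%, while Cnn1, Tagln and Myh11 stay at 3.10% or less in every library, with Tagln as counted at 0.

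The members held to be most restricted to smooth muscle had few or no footprints. Myh11, the smooth muscle myosin heavy chain (ENSMUSG00000018830, chromosome 16, 14194535 to 14291372, minus strand), was covered by 3 and 2 reads in WT and by 3 and 7 in KO-labelled ones, or 0.655, 0.559, 0.435 and 1.14 RPKM. It made up 0.410% to 2.12% of its myosin heavy chain family, in which the nonmuscle Myh9 took 85.7% to 91.9%. Cnn1, the smooth muscle calponin (ENSMUSG00000001349, chromosome 9, 22099216 to 22109630, plus strand), was without reads in both WT libraries and had 1 and 3 reads in KO-labelled ones. These counts are all at or under the floor, so no fold is given, and the calponins Cnn2 and Cnn3 took the rest of the family.

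Neither gene reached the mean of 1 RPKM required for the test. Their exact Poisson upper limits at 95% were 1.27 to 2.35 RPKM for Myh11 and 2.24 to 3.97 RPKM for Cnn1, which are bounds from counting error only. Each limit is below the lowest library of Acta2 by a wide margin, since that library stood at 46.7 RPKM.

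Myl9, the regulatory light chain of smooth muscle myosin (ENSMUSG00000067818, chromosome 2, 156775420 to 156781658, plus strand), had 0 and 12.8 RPKM in WT and 2.85 and 2.13 RPKM in KO-labelled libraries, from 0, 7, 3 and 2 reads. Only WT replicate 2 was above the floor, and the WT libraries lay on either side of both KO-labelled libraries. The log2 difference was -0.10 ± 1.18 (SE, 95% interval -3.00 to 2.80, adjusted p = 0.985 in limma). It was -1.99 without WT replicate 1 and 1.80 without WT replicate 2, each over 2-fold with an unadjusted p under 0.05 (0.0234 and 0.0134 in limma, adjusted p = 0.462 and 0.328), so a single library sets its direction. Myl9 also shares a run of 35 coding bases, 67 to 101, with Myl12a and Myl12b, shown because it is longer than a footprint.
Myl9, Myl12a and Myl12b: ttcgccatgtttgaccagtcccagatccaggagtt

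Tagln, or SM22 alpha, among the most abundant proteins of smooth muscle (ENSMUSG00000032085, chromosome 9, 45929619 to 45936058, minus strand), had 0 reads in each of the 4 libraries. Its 3-read floor was 2.50 and 3.20 RPKM in WT and 1.66 and 1.87 RPKM in KO-labelled libraries. Tagln2, its widely expressed relative, had 119 and 206 RPKM in WT and 222 and 244 RPKM in KO-labelled libraries, and it made up 97.8% to 100% of the transgelin family as counted, a share that rests on the 0 listed for Tagln. The starts of both are printed to show that the genes are similar but not alike at the level of a footprint, with bases of Tagln2 that differ from Tagln in capitals.
Tagln: atggccaacaagggtccatcctacggcatg
Tagln2: atggccaacaGgggAccTtcctacggcCtg
They differ at 4 of the first 30 bases, the longest run common to both coding sequences is 15 bases, and no 30-base window of Tagln occurs in another gene.

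In the annotation, however, Tagln has a second gene on top of it. All 603 of its coding bases, and 1241 of its 1988 exonic bases, lie under exons of Gm48529 (ENSMUSG00000111521, chromosome 9, 45930112 to 45933738, plus strand), an antisense long noncoding RNA that also had 0 reads in all 4 libraries. A further 108 exonic bases lie under Pcsk7. Tagln was the only member with any base under another gene's exons. Whether the authors' counting used strand, and how it treated a read that falls in more than one gene, was not stated in the sources used here.

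The same overlap was therefore tabulated for protein-coding genes in general. Of 17989 genes with no coding base under another gene's exon, 34.4% had 0 reads in all 4 libraries, with a median of 6 reads over the 4 libraries together. Where less than 50% of the coding bases were covered, 19.3% of 2959 genes had 0 reads, and where 50% to under 100% were covered, 44.8% of 478 genes did. Of the 368 genes with 100% of their coding bases covered, 316 had 0 reads, which is 85.9%, with a median of 0 reads. Tagln belongs to this last class, so its floor bounds what was counted and not its translation. The part of the overlap in the value of Tagln was not tested, since the reads themselves were not used here.

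**Figure D3:**
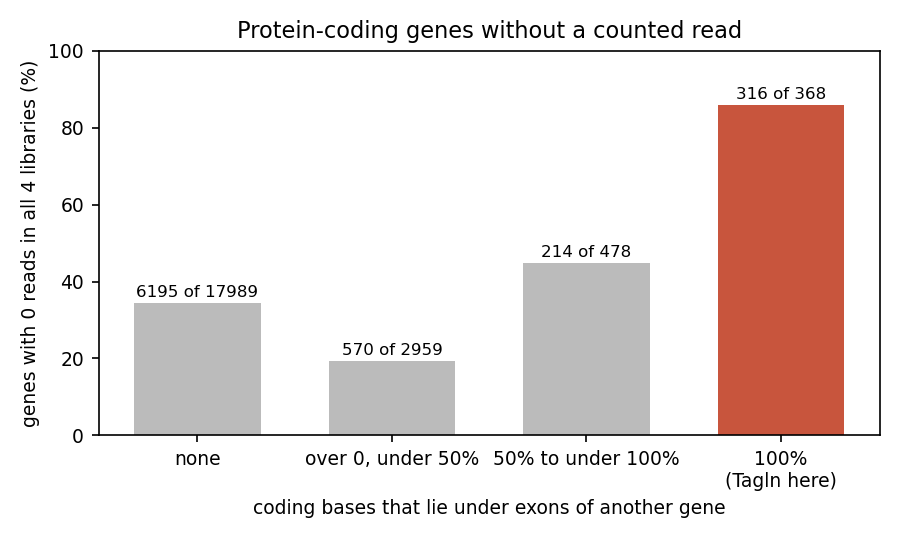
Share of protein-coding genes with 0 reads in all 4 libraries, in percent, by the share of their coding bases that lies under exons of another gene, with counts above the bars. The bar for complete cover, the class of Tagln, is at 85.9%, against 34.4% for genes without any cover.

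Of the mural cell genes, Rgs5, which shortens G protein signalling in pericytes (ENSMUSG00000026678, chromosome 1, 169655501 to 169695813, plus strand), had 17.9 and 11.7 RPKM in WT and 7.76 and 10.3 RPKM in KO-labelled libraries, from 49, 25, 32 and 38 reads. Both KO-labelled values lay under both WT values, with 10.3 and 11.7 RPKM close together. The means were 14.8 ± 4.39 and 9.06 ± 1.83 RPKM (SD, n = 2). The log2 difference was -0.63 ± 0.41 (SE, 95% interval -1.65 to 0.39), and it did not pass the test (adjusted p = 0.697 in limma). On totals of reads it was -0.07, which is 0.54 under the median gene on that scaling, and the groups overlapped.

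Cspg4, the NG2 proteoglycan of pericytes (ENSMUSG00000032911, chromosome 9, 56865033 to 56899870, plus strand), had 1.67 and 1.25 RPKM in WT and 3.14 and 1.25 RPKM in KO-labelled libraries, from 12, 7, 34 and 12 reads. KO-labelled replicate 1 was high and the other 3 were close together. The log2 difference was 0.32 ± 0.55 (SE, 95% interval -1.03 to 1.67, adjusted p = 0.860 in limma). It was -0.12 without that library and 0.78 once each library's trend on coding GC and length was taken out, with the replicate number as a block.

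Since eIF5A is known to help ribosomes through runs of proline, the members' coding sequences were searched for proline codons in a row. Cspg4 was the only member with at least 3 in a row, and it had a run of exactly 3, within coding bases 6886 to 6912. It is shown with the proline codons in capitals.
Cspg4: ggccaggggCCCCCACCAggaggccag
The longest run was 2 codons in Acta2, Tagln and Myh11, 1 in Cnn1, Myl9, Cald1 and Rgs5, and 0 in Tpm1 and Tpm2. The values per gene give no position of the ribosomes within Cspg4, so nothing was measured at this run. The GC content of the coding sequences lay between 49.2% in Rgs5 and 59.9% in Cspg4. Across 9869 genes the log2 difference went down with coding GC content (Spearman rho = -0.36 across genes, which are not independent and share the 4 libraries). With each library's trend on GC and length taken out, again with the block, Acta2 was at -0.66, Rgs5 at -0.95 and Tpm1 at 0.22, and none passed the adjusted threshold.

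As a set, the members did not stand out from other genes. Of the 10, 7 had a mean of at least 1 RPKM and were tested, and none passed an adjusted p under 0.05 in limma in either direction, where 0.0088% of all 11363 genes tested were called higher and 0.0968% lower. None had an unadjusted p under 0.05, so that none met the criterion of 2-fold with such a p, which 2.67% of all genes met as higher and 4.29% as lower. With voom on whole reads recovered from the RPKM, 8 members were tested and 0 were called or had an unadjusted p under 0.05, against 76 genes called in all. Acta2 and Rgs5, 2 of 7, were lower in KO-labelled libraries without overlap, where 20.3% of all genes tested were, and 0 of 7 were higher without overlap, where 20.1% of all genes were. On totals of reads this split turned round, since Tpm1, Tpm2 and Cald1 were then higher without overlap and 0 of 7 lower, where 41.4% of all genes were higher and 7.87% lower. The median log2 difference of the 7 on the deposited scaling was 0.04 and that of all genes tested 0.00026.

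**Figure D4:**
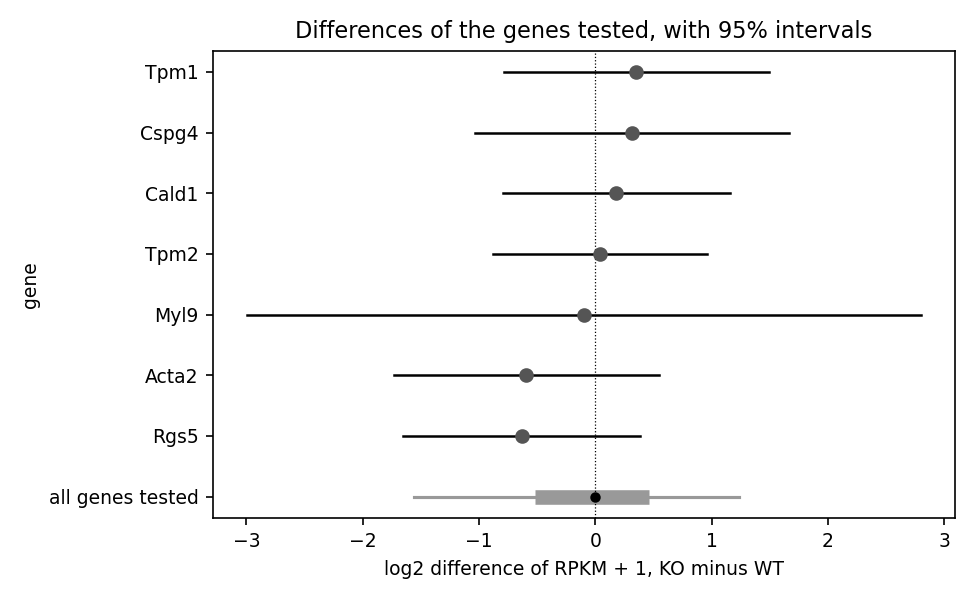
Log2 difference of RPKM + 1, KO-labelled libraries minus WT, for the 7 genes tested, with 95% intervals from limma as lines. The grey bar spans the 25th to 75th percentile of all 11363 genes tested and the thin grey line the 5th to 95th. Every interval crosses 0, and the 7 points lie between -0.63 and 0.35.

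The summed level of the 10 genes was 184 and 184 RPKM in WT and 148 and 172 RPKM in KO-labelled libraries, which did not overlap (exact permutation p = 0.333, the smallest possible). In reads the direction was the other one, with 494 and 419 in WT and 785 and 713 in KO-labelled libraries, whose totals of gene-assigned reads were similar. The gap between the RPKM means, 184 ± 0.401 and 160 ± 17.4 RPKM (SD, n = 2), was smaller than that of Acta2 alone. As a share of reads in protein-coding genes the members took 0.184% (95% Wilson interval 0.168% to 0.200%) and 0.193% (0.175% to 0.212%) in WT and 0.171% (0.159% to 0.183%) and 0.185% (0.172% to 0.199%) in KO-labelled libraries. These shares overlapped between the groups (exact permutation p = 0.667), and all 4 intervals shared a range. The intervals and floors cover counting error only. In bulk samples of this kind, fewer cells of a type and fewer footprints per cell cannot be told apart.

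Related genes were read from lists chosen for their roles. Their counts are on the deposited scaling and stand against the shares of all genes on it, 20.1% higher and 20.3% lower without overlap. On totals of reads, where these shares were 41.4% and 7.87%, the lists were not counted. Nothing particular to a list is read from the counts. Of 21 other smooth muscle genes 16 were tested. None met the 2-fold criterion, 5 of the 16 were higher in KO-labelled libraries without overlap and 0 lower, beside 20.1% and 20.3% of all genes, and the median was 0.03. Those with the highest mean were Flna, a filamin that crosslinks actin, at 31.2 and 33.0 RPKM in WT and 56.7 and 38.6 RPKM in KO-labelled libraries, Csrp1, a LIM protein, and Actn1, an alpha-actinin of stress fibres. Kcnmb1 was at 0 in all libraries and Actg2, Lmod1 and Pdlim3 never exceeded 3 reads. Smtn and Ppp1r12a, genes of contraction, averaged 12.8 and 14.8 RPKM. Mylk and Ppp1r14a, also genes of contraction, were lower at averages of 2.83 and 4.57 RPKM, the latter from 1 to 6 reads per library.

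Of 11 genes around Srf, 9 were tested. Foxo4, a factor that restrains myocardin, met the 2-fold criterion with 6.19 and 9.14 RPKM in WT and 0.949 and 2.13 RPKM in KO-labelled libraries (log2 difference -1.79, adjusted p = 0.601 in limma). With 3 reads it was at the floor in KO-labelled replicate 1, and it had 6 reads in KO-labelled replicate 2. It was the only such gene of the 9, beside 4.29% of all genes as lower, and 3 were lower without overlap and 1 higher. Srf itself was among those lower, at 21.8 and 18.3 RPKM in WT and 3.05 and 14.6 RPKM in KO-labelled libraries. Its log2 difference was -1.40 (adjusted p = 0.676 in limma). Myocd, which encodes myocardin, was not tested, with 4 and 2 reads in WT and 0 and 0 in KO-labelled libraries. Of the 9 tested, 6 had a fitted difference below 0 and 3 above. The median of the list was -0.21. Of 12 other pericyte and mural markers 10 were tested with a median of -0.34, 4 lower without overlap and 1 higher. Of the 10, 7 had a fitted difference below 0 and 3 above, which were Anpep at 0.63, Kcnj8 at 0.19 and Mcam at 0.09. Pdgfrb, with the highest mean of the list, had 37.5 and 34.9 RPKM in WT and 41.3 and 28.0 RPKM in KO-labelled libraries. Its log2 difference was -0.09. Ndufa4l2, a mitochondrial protein enriched in pericytes, met the criterion with 19.7 and 27.1 RPKM in WT and 12.1 and 4.52 RPKM in KO-labelled libraries (log2 difference -1.51, adjusted p = 0.672 in limma). Cox4i2 also met it, which makes 2 of 10 as lower beside 4.29% of all genes. However, Cox4i2 had 3 reads or fewer in every library, so it has no fold, and it passed the filter for testing through the WT libraries alone. None of these genes passed the adjusted threshold.

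Of 15 myofibroblast genes 14 were tested, and 2 met the criterion as higher, beside 2.67% of all genes. Postn, the matrix protein periostin, had 2.29 and 3.90 RPKM in WT and 11.8 and 7.68 RPKM in KO-labelled libraries (log2 difference 1.39, adjusted p = 0.650 in limma). Cthrc1 was at 0 in both WT libraries and at 4.84 and 3.11 RPKM, from 7 and 4 reads, in KO-labelled libraries, and it passed the filter for testing through those libraries alone. In this list 5 of 14 genes were higher without overlap and 0 lower, beside 20.1% and 20.3% of all genes, with a median of 0.45. Acta2, often used to mark myofibroblasts, was on the other side of 0 at -0.59, although no test separates it from that list.

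**Figure D5:**
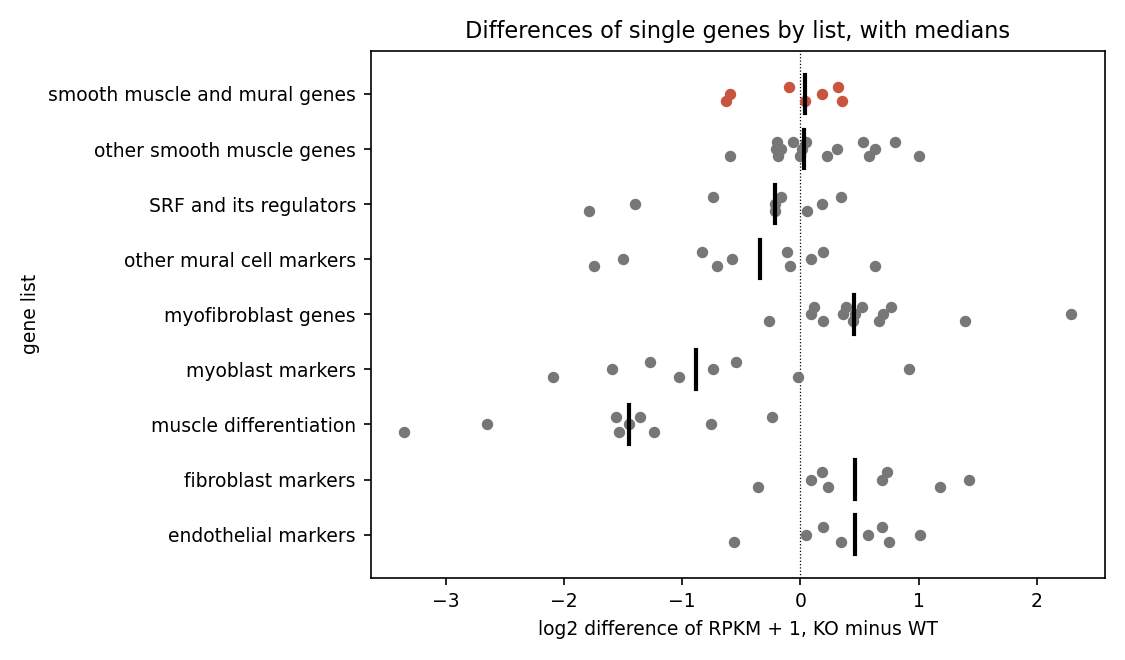
Log2 difference of RPKM + 1, KO-labelled libraries minus WT, for each gene tested, by list, with the list's median as a black bar. The 7 smooth muscle and mural genes in red scatter around a median of 0.04, while muscle differentiation genes have a median of -1.45 and myofibroblast genes one of 0.45.

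Markers of other cells varied between the same libraries. Of 9 tested muscle differentiation genes, 7 were lower without overlap, beside 20.3% of all genes, and 4 met the criterion as lower, beside 4.29%. These were Mylpf, Tnnt3, Actc1 and Myog, with adjusted p from 0.608 to 0.672 in limma. Myog had 82 reads in WT replicate 1 and 3, 1 and 2 in the other libraries. Actc1 had 62 against 5, 3 and 4. Tnnt3 never exceeded 4 reads and was above the floor in WT replicate 2 alone. Its KO-labelled levels were 0.696 and 0.782 RPKM, so it counts among the 4 only because its WT levels carried it past the filter for testing. The summed level of the 14 genes listed was 330 and 82.2 RPKM in WT and 45.0 and 45.0 RPKM in KO-labelled libraries. WT replicate 1, the highest library for this sum, was also the highest for Acta2 and Rgs5. Without that library their log2 differences were -0.39 and -0.35, and a link to this sum was not tested. Of 9 myoblast markers 8 were tested with a median of -0.88, 4 were lower without overlap and 1 higher, and 3 met the criterion as lower. These were Myf5, Pax7 and Des, and none passed the adjusted threshold (adjusted p = 0.629, 0.660 and 0.665 in limma). Myf5 was at 6.37 and 4.08 RPKM in WT against 1.06 and 0 RPKM, from 8, 4, 2 and 0 reads. It was thus at or under the floor in KO-labelled libraries and passed the filter for testing through the WT libraries alone. Pax7, whose locus drives the Cre, was at 8.49 and 3.62 RPKM against 0.941 and 1.48 RPKM, and Des at 46.0 and 40.1 RPKM against 13.8 and 21.4 RPKM. The list summed to 246 and 194 RPKM in WT and 119 and 130 RPKM in KO-labelled libraries. The 10 fibroblast markers, led by Dcn, Ly6a and Pdgfra and with Tcf21 at 0, gave 0 genes past the criterion among 8 tested, 3 higher and 1 lower without overlap, and a median of 0.46. They summed to 485 and 339 RPKM in WT and 855 and 398 RPKM in KO-labelled libraries, and the 9 endothelial markers to 229, 335, 321 and 406 RPKM. The cultures labelled as myoblasts thus also held footprints of fibroblast and endothelial genes. Their part in the levels of the smooth muscle and mural genes was not tested.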

How the data were processed

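The deposited table, as the authors made it, gives RPKM per gene for each library. Per the study's methods, reads were filtered for quality, adapters, rRNA and tRNA, mapped to GRCm38 with Tophat2, and summed over genes by HTSeq. Versions, and the handling of strand and of reads with several matches, are not given in the sources used here. RPKM was multiplied by gene length and divided by the smallest positive product in the library, which was assumed to be 1 read. This returned whole reads for 100.0% of values (tolerance 0.01). The depths, read counts, floors and counting intervals rest on it. The main test was limma 3.58.1 (R 4.3.3, eBayes with trend) on log2(RPKM + 1) of 11363 genes with a mean of at least 1 RPKM, with no covariate beside the group. P-values were two-sided and Benjamini-Hochberg adjusted over all of them, with a threshold of 0.05. Log2 differences on this scale understate changes of low genes. Single values were compared by the exact permutation test, which cannot go below 0.333 here. Overlaps, coding sequences and 30-base windows came from GENCODE vM21, of the same build, and positions from the deposited table. The fits were also run on simulated data, and the outcome of that run is not given here. The 17 alternatives covered pseudocount, filters, scaling, variance model, GC content and length, the replicate block, voom and each library left out.

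The members and all lists were chosen with earlier results of these data known. The rule for names took every member and Eif5a, then from each other list the genes past an adjusted p under 0.05 or past 2-fold with p under 0.05 (at most 4, by lowest p), or else the 3 with the highest mean, and paralogs beside their family's member. Genes named as being at 0 or at the floor were chosen after their values were seen. So were Smtn, Ppp1r12a, Mylk, Ppp1r14a, Srf, Myocd, Pdgfrb, Mcam, Anpep, Kcnj8, Cd68 and Pecam1. One further marker list is not reported here.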

Additional observations from a re-analysis of the deposited data

How the results depend on the processing

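No member passed the adjusted threshold under any of the 17 alternatives, and the adjusted p ranged from 0.422 to 0.990 for Acta2 and from 0.384 to 0.944 for Rgs5. Rgs5 was below 0 under all 17. Acta2 was below 0 under 16, and it was 0.0131 on total reads, where the median of all genes was 0.47 and that of the members 0.61. Myl9 turned to 1.18 with a pseudocount of 0.1, to 0.35 on total reads and to 0.23 with voom, and Tpm2 to -0.067 on protein-coding reads. With the replicate block Acta2 was -0.59 and 0 members were called. Replicate numbers did not pair the libraries (correlation of same-numbered deviations 0.057), and the block changed no call. Leaving out 1 library, which leaves a lone library assumed to vary like the other group, moved Myl9 from -1.99 to 1.80, Cspg4 from -0.12 to 0.76, Eif5a from -0.12 to 0.76, Tpm1 from -0.0335 to 0.74 and Tpm2 from -0.066 to 0.15. It moved Acta2 from -0.85 to -0.34, Rgs5 from -0.92 to -0.35 and Cald1 from 0.017 to 0.35. Members past 2-fold with p under 0.05 then numbered 0 to 1, the 1 being Myl9 without either WT library. Members whose groups did not overlap numbered 1 (Rgs5) under quantile normalization, 3 on total reads (all higher), 3 with the GC and length trend removed (Cspg4 added), 3 with no filter (Cnn1 added) and 4 to 6 with a library left out, where a group of 1 library overlaps less by construction. The cause of the other changes was not tested. Tagln and Cnn1 never exceeded the 3-read floor, and Myl9 and Myh11 each exceeded it in 1 library.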

Other observations

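Of 8 endothelial markers tested, 5 were higher in KO-labelled libraries without overlap and 0 lower on the deposited scaling, beside 20.1% and 20.3% of all genes on it. On total reads, where these shares of all genes were 41.4% and 7.87%, the list was not counted. The median log2 difference of the 8 on the deposited scaling was 0.46. Pecam1, among the 5, was nearly even at 21.8 and 21.1 RPKM in WT and 22.0 and 22.5 RPKM in KO-labelled libraries. Kdr, the main VEGF receptor of endothelium, was the only endothelial marker past 2-fold with an unadjusted p under 0.05, at 3.31 and 4.47 RPKM in WT and 10.0 and 7.68 RPKM in KO-labelled libraries (adjusted p = 0.672 in limma). Of 8 immune markers 3 were tested, with a median log2 difference of -0.36, 1 higher and 1 lower without overlap. Itgam, Cd3e and Cd79a had 0 reads in all 4 libraries, and Cd68 was lower without overlap at 15.8 and 23.6 RPKM in WT against 14.9 and 14.8 RPKM. Adgre1, a macrophage receptor, met the same criterion as higher, but with 1 and 3 reads in WT it was at or under the floor there, at 0.512 and 1.97 RPKM in WT and 4.43 and 4.21 RPKM in KO-labelled libraries (adjusted p = 0.672 in limma). No explanation was tested for these values.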
